A study of Homo sapiens with 4 samples.

Results

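New intronic peaks are regions listed with new MBD-seq signal whose summits lie inside genes but away from every annotated transcript start. From a list of 12864 new MBD-seq peaks of HEK293 cells, 12667 lie on chromosomes 1 to 22. A peak was taken when its summit, the base with the highest signal, fell in an intron of a canonical protein-coding transcript, in no exon of such a transcript, and more than 1000 bp from every annotated transcript start of any gene. The annotation was GENCODE release 44 on hg19. The rule found 733 peaks, 5.79% of the peaks on these chromosomes (95% exact binomial interval 5.39 to 6.21), in introns of 673 host genes. The other peaks were 10354 with a summit within 1000 bp of a start, 246 in exons of coding genes and 1334 outside coding genes, both farther than 1000 bp from starts.

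The list comes from 1 library of HEK293, a human embryonic kidney cell line, transiently transfected with plasmids for 3 components. They were dCas9 with a SunTag peptide array, an antibody fragment fused to DNMT3A and DNMT3L with the wild type DNMT3A part (Ab-3A3L WT), and an sgRNA against the ISG15 promoter. Cells positive for all components were sorted 3 days after transfection, and their DNA was pulled down with the methyl-CpG binding protein MBD2. The study also made 1 library each of untreated cells and of cells with the DNMT3A mutants K844E and R887E, which received the same scaffold and sgRNA. These were not analysed here, and untreated cells enter only through the list, which holds peaks found against them. No library was replicated, so that no test between conditions was possible, and all intervals below cover counting error only. Expression from transfected plasmids is transient and differs from cell to cell, and the pulldown gives an average over the sorted cells.

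DNMT3A sets methyl groups on CpG sites that carried none before, and DNMT3L stimulates it without being active itself. In human cells most CpGs in gene bodies are methylated, while many CpG islands, the CpG-rich stretches found at most promoters, are free of methylation. The study found both methylated and unmethylated islands in untreated cells. Introns also hold islands without an annotated start, and many copies of transposable elements and tandem repeats. MBD2 binds methylated CpGs, so a region yields more fragments the more methylated CpGs it carries, and a region of few CpGs yields few.

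The sequences around the summits fell into very different kinds. The runs given here are the 200 bases centered on the summit of 7 new intronic peaks, on the plus strand of hg19, with each CG in capitals. They were picked for the highest folds, the longest distance to a start, the absence of CpGs and the lowest fold.
GRAMD2A (intron 1, highest fold), chr15:72476758-72476957: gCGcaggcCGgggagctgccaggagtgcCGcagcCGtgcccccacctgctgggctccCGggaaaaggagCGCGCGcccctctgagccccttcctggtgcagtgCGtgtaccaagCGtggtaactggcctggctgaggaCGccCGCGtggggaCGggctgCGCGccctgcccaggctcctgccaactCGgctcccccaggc
NCR3LG1 (intron 1, second highest fold), chr11:17375077-17375276: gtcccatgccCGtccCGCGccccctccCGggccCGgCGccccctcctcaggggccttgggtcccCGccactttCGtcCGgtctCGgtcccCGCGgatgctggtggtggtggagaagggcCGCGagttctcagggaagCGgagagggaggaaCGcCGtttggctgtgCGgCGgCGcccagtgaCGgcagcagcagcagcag
EFNA3 (intron 1, most CpGs of the runs shown), chr1:155054532-155054731: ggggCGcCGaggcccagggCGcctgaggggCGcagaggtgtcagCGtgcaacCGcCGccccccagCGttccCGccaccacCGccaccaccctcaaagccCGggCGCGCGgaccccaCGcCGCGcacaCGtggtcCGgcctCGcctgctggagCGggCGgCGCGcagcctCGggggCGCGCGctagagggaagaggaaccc
CNTNAP2 (intron 1, farthest from a start), chr7:146171990-146172189: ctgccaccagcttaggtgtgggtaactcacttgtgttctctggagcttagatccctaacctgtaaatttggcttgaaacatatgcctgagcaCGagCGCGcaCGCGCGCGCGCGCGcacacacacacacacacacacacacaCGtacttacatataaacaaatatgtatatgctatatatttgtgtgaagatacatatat
CTNND2 (intron 1, no CpG), chr5:11880938-11881137: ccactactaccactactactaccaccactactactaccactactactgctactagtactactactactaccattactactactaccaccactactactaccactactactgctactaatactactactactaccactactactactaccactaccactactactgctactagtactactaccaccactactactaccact
DLEC1 (intron 7, no CpG), chr3:38125902-38126101: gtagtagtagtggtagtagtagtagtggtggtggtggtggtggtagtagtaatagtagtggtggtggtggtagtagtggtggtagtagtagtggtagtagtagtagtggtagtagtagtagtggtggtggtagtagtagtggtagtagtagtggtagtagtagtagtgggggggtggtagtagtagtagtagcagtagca
AHRR (intron 5, lowest fold), chr5:415567-415766: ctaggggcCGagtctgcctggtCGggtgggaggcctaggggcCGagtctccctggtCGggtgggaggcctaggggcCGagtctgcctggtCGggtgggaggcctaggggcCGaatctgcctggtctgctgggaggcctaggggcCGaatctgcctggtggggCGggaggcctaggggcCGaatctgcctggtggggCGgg

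The runs of GRAMD2A, NCR3LG1 and EFNA3 carry 17, 21 and 28 CpGs and belong to CpG islands. In CNTNAP2 the 11 CpGs are almost all in an alternating CG stretch beside a CA repeat. CTNND2 and DLEC1 have simple repeats without any CpG. On the plus strand the CTNND2 run is made mainly of ACT and ACC units. The DLEC1 run is made mainly of their reverse complements, AGT and GGT, so that both are repeats of a like kind on opposite strands. C makes up 39% and G 2.5% of the shown CTNND2 run, and C makes up 1% and G 45.5% of the DLEC1 run. The run of AHRR consists of repeat units of 34 bases.

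New intronic peaks were smaller, poorer in CpGs and lower than those at start sites. Their median width was 309 bp (order-statistic interval 299 to 315), compared with 548 bp at starts. They held a median of 18 CpGs (17 to 19) against 57, or 5.86 against 10.4 CpGs per 100 bp. GC content was 64.7% against 70.7%, and the observed/expected CpG ratio, which is low where CpGs have been lost in evolution, was 0.627 against 0.847. A CpG island, rebuilt from the sequence by the UCSC criteria without masking repeats, overlapped 333 of the 733 peaks, or 45.4% (41.8 to 49.1). That share was 96.5% at start sites, 69.9% in coding-gene exons and 60.6% outside coding genes. Thus the intronic peaks had the lowest share of the 4 classes, by an amount beyond the counting intervals. A further measure was whether most of the 30-mers in the 300 bp around the summit occur more than once in the genome. This held for 169 peaks, 23.1% (20.1 to 26.3), near the 24.7% outside coding genes and above the 3.80% at starts and 5.29% in exons.

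The fold in the list is the ratio of fragments at the summit to a background. MACS2 is named in the submitters' processing notes, and by its formulas the number of fragments at a summit and the background rate can be worked back from the fold and the p-value. The rate, in fragments, is read here as the signal of the control, which is an inference. The median fold of the new intronic peaks was 5.84 (5.52 to 6.21), with quartiles of 4.05 and 7.63 and a range of 1.66 to 21.4. At start sites it was 7.93 (7.75 to 8.07), in exons 4.75 (4.27 to 5.35) and outside coding genes 5.86 (5.79 to 6.17). The number of fragments did not follow this order, with a median of 18 (18 to 19) in introns and 17 at starts. What differed was the background rate, with a median of 2.08 (1.69 to 2.16) in introns against 0.790 (0.773 to 0.825) at starts. The other classes away from starts also had high rates, with medians of 3.47 (2.78 to 4.39) in exons and 1.97 (1.76 to 2.08) outside coding genes. Thus the intronic summits held about as many fragments as those at starts, over a higher background. A higher background calls for more fragments to enter the list, so its q-value threshold in part sets these fragment numbers. The lowest rate in the list, 0.611 and the same genome-wide, was found at 109 intronic peaks, 14.9% (12.4 to 17.7). It was found at 33.2% of the peaks at starts, 10.2% in exons and 14.5% outside coding genes.

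Where the background was equal, the folds of both classes were close. At the genome-wide rate the 109 intronic peaks had a median fold of 8.69 (8.69 to 9.31) and the 3432 start-site peaks one of 9.31 (9.31 to 9.93). Within that rate, intronic peaks with under 20 CpGs had a median of 7.45, those with 20 to 39 one of 8.69, those with 40 to 79 one of 9.93 and those with 80 or more one of 12.4. The medians at starts in the same bands were 6.83, 7.45, 9.31 and 11.8. Across all 733 peaks fold and rate had a Spearman correlation of -0.86, but both share the rate, and peaks below the q-value threshold of the list are not seen. Fold and CpG number had a correlation of 0.44 over the 333 peaks in islands and of -0.26 over the 400 outside. All these points come from 1 library.

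**Figure D1:**
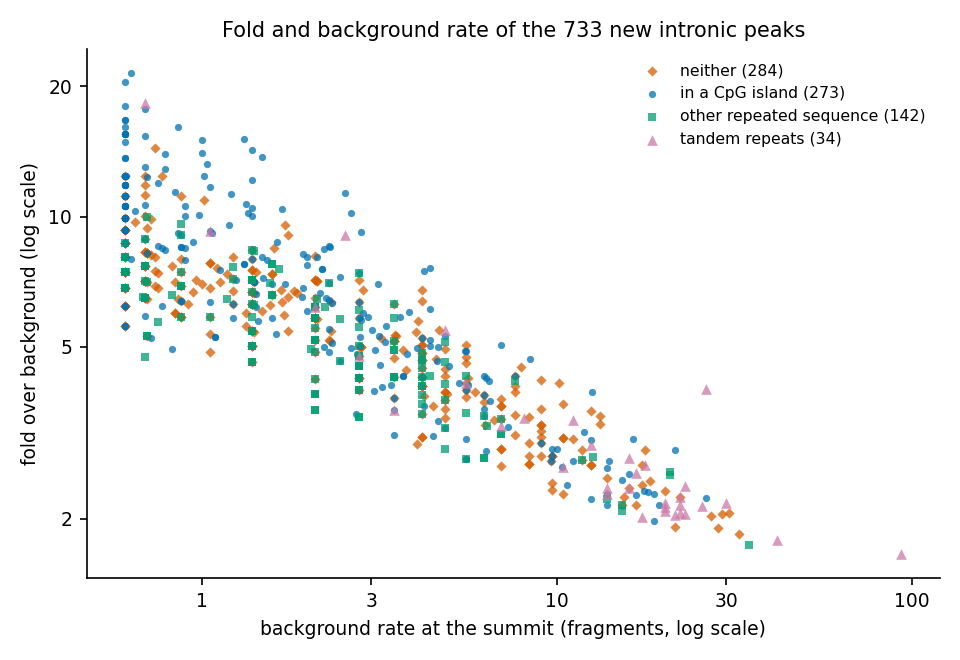
Each point is 1 of the 733 new intronic peaks, with its background rate in fragments on the x axis and its fold on the y axis, both on log scales. Triangles are the 34 peaks in tandem repeats, squares the 142 in other repeated sequence, circles the 273 in islands of other sequence and diamonds the 284 in neither. Folds above 10 lie at the left, at low rates, and most tandem repeats lie at the lower right, with CTNND2 at 18.3 as an exception.

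The highest folds were found mostly in CpG islands of first introns. The tenth place is shared by 4 peaks with a fold of 15.5, so that 13 peaks lead. Of these 12 overlapped an island and 11 lay in intron 1, and all had a background rate under 1 and 24 to 34 fragments. The highest was in intron 1 of GRAMD2A, which codes for a protein of contact sites between the endoplasmic reticulum and the plasma membrane, at chr15:72476554-72477109. It had 34 fragments over a rate of 0.632, a fold of 21.4 and 33 CpGs, and lay 7955 bp from the nearest annotated start, while the next new peak was 45160 bp away. The second was in NCR3LG1, which codes for a ligand of natural killer cells, with a fold of 20.5 at chr11:17374424-17375423. Its island of 2403 bp also reaches the start region, and a new peak there ended 254 bp away. EFNA3, the gene of ephrin-A3, followed CTNND2 with a fold of 18.0 and 93 CpGs at chr1:155054170-155055334. The others were AMOTL1 (17.7), which codes for a protein of cell junctions, TLN2 (16.8), a link of integrins to actin, ZSWIM6 (16.8), the cAMP phosphodiesterase gene PDE4A (16.1), the netrin receptor gene UNC5A (16.1) and, at 15.5, AHDC1, coding for an AT-hook protein, RARA, RNF220 and TANC1. In 6 of the 13, the overlapped island came within 1000 bp of an annotated start. Of these, the peaks of AMOTL1 and TLN2 also cover the start of their host, and only their summits lie farther away. The sole peak of the 13 outside islands was that of CTNND2, a neuronal catenin gene. With 30 fragments, a rate of 0.694 and a fold of 18.3 it had no CpG in its 413 bp, at chr5:11880791-11881203.

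Only 9 new intronic peaks had 5 CpGs or fewer, 1.23% (0.563 to 2.32), and CTNND2 and DLEC1 were those with none. In DLEC1 the peak of 330 bp at chr3:38125794-38126123 had 31 fragments, a rate of 2.53 and a fold of 9.07. The other 7 had 5 CpGs and folds between 4.26 (PTPN5) and 7.12 (PDGFRB). Among start-site peaks 2 of 10354 had 5 CpGs or fewer. Both peaks without CpG lie in simple repeats, with a fraction of 0.79 of bases equal to those 15 positions further on in CTNND2 and of 0.735 at 6 positions in DLEC1. Whether the fragments placed there were pulled down from these sites was not tested.

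The distance to the nearest start had a median of 4364 bp (3570 to 5014), with quartiles of 1790 and 12048 bp. Peaks 1000 to 2000 bp from a start numbered 216, and 66.7% (60.0 to 72.9) of them overlapped an island. The share fell to 41.2% at 2000 to 5000 bp, 37.6% at 5000 to 20000 bp, 27.7% at 20000 to 50000 bp and 21.7% (7.46 to 43.7) beyond. In the same order the share in intron 1 was 66.7%, 42.4%, 31.6%, 24.1% and 21.7%. The nearest peaks were thus mainly island peaks of first introns, and 116 of the 216 lay in an island that reaches within 1000 bp of a start. The median fold changed little, with 6.18, 5.84, 5.32, 6.21 and 5.84 in the 5 bins, and the interval of the last bin, 5.30 to 7.48, overlapped those of all others. In the first bin 16.7% of the peaks had a fold of 10 or more, and in the last 1 of 23.

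Peaks at the longest distances from any start were found in long introns. The farthest lay 299273 bp away in intron 1 of CNTNAP2, a neurexin-like adhesion gene, at chr7:146172019-146172271, with 12 fragments, a rate of 1.39 and a fold of 5.44. The peak of FSTL5, a follistatin-like gene, was 162536 bp from a start, with 11 fragments and a fold of 5.03. MACROD2, coding for an ADP-ribose hydrolase, had one at 132646 bp with 16 fragments and a fold of 7.12. These 3 lay outside islands. The exception was ESRRG, an orphan nuclear receptor gene, whose peak at 114085 bp lay in an island of 43 CpGs and 395 bp and had a fold of 9.25 on 18 fragments. With 11 to 18 fragments each, their folds are known only roughly.

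Along the genes, new intronic peaks were shifted to the first intron. Intron 1 held 318 peaks, 43.4% (39.8 to 47.1), intron 2 held 101 and intron 3 held 73. Of the intronic sequence open to the rule, which is 923.1 Mb or 32.0% of the chromosomes, intron 1 makes up 24.2%, and of the islands there 27.3%. Island and no-island peaks both lay above that share, with 58.0% (52.5 to 63.3) and 31.3% (26.7 to 36.0) in intron 1. Without the 128 peaks whose island comes within 1000 bp of a start, chosen after seeing the data, intron 1 held 34.5%. The peaks lay a median of 2245 bp (1958 to 2584) from the next exon, and 49 within 100 bp. Hosts on the plus strand held 368 of the peaks, 50.2% (46.5 to 53.9).

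Few intronic islands gained a peak. Of 9562 islands in introns, chosen by the same rule as the peaks, 256 overlapped a new peak, 2.68% (2.36 to 3.02). Under stricter criteria (at least 500 bp, GC of 55% and observed/expected ratio of 0.65) there were 935 such islands, of which 115 had a peak, 12.3% (10.3 to 14.6), against 61.1% at starts. With the main criteria the share was 43.1% of 20394 islands at starts, 5.04% in exons, 4.21% outside coding genes and 20.1% of all 49214 islands on chromosomes 1 to 22. A low share was thus found for all 3 classes of islands away from starts. Intronic islands are small, with a median of 23 CpGs against 68 at starts, but the difference also held among islands of like CpG number. Among those with 30 to 49 CpGs the shares were 4.09% (2.95 to 5.51) in introns and 19.7% (18.4 to 21.2) at starts. With 50 to 99 CpGs they were 7.61% and 50.5%, and with 100 or more 24.4% (19.6 to 29.7) and 73.6%. The intervals of introns and starts were apart in each of these bands. In the last band islands in exons had 18.1% and islands outside coding genes 27.8%, with intervals that overlap that of introns. Islands of intron 1 gained a peak more often than those of later introns, 4.68% (3.90 to 5.56) against 1.93% (1.62 to 2.28). Whether the islands without a new peak were already methylated in untreated cells was not tested. An island with like signal in the control would be missed by the list. Of the 85 intronic peaks with a rate over 10, 38 overlapped an island. Rates were recovered only at listed peaks, so how often islands of high rate stayed without a peak is not known.

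Host genes often also had a new peak at their own promoter. A new peak of the other classes lay within 1000 bp of the canonical start in 411 of the 673 host genes, 61.1% (57.3 to 64.8). New intronic peaks were not counted here, although some, such as those of SHANK2, AMOTL1 and TLN2, cover the start of their host. The hosts include 22 protocadherin gamma genes that share 1 intronic peak, and without them the share was 411 of 651, 63.1%. Of all 16747 genes with intronic sequence open to the rule the share was 45.7%. Hosts have more such sequence than other genes, a median of 64414 against 17948 bp, and the share at starts rises with it. In the 168 hosts with the least open sequence it was 55.4% (47.5 to 63.0) against 36.8% (35.8 to 37.8) in other genes of the same range, whose median of 7105 bp was below the 11362 bp of these hosts. In the next 168 it was 60.1% (52.3 to 67.6) against 51.5% (49.9 to 53.2), and in the following 168 62.5% (54.7 to 69.8) against 61.5%. In the 169 hosts with the most it was 66.3% (58.6 to 73.4) against 63.8% (61.3 to 66.3), and in these 3 ranges the intervals overlap. Only among the hosts with the least open sequence were the intervals apart. These ranges also count the protocadherin gamma genes, and they were not computed without them.

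The peak at the start was mostly the higher of both. For 485 intronic peaks whose host had a start-site peak, the intronic fold was higher in 117, or 24.1% (20.4 to 28.2), and the median ratio of intronic to start-site fold was 0.721 (0.667 to 0.754). Where a start had several new peaks, the one with the highest fold was taken, and hosts with several intronic peaks enter with each of them. Fragments at the summit had medians of 18 and 20, CpGs 18 and 73, and background rates 2.08 and 1.12. With both rates at most 1, the intronic fold was higher in 23 of 114 pairs, with a median ratio of 0.778 (0.700 to 0.824). The pairs spread widely. In EFNA3 the intronic fold of 18.0 stood beside 6.83 at the start, and in RAP1GAP, a GTPase activating protein gene, 7.45 beside 2.19. In RAP1GAP the start had more fragments, 30 against 11, over a rate of 13.2 against 0.611. The opposite extreme was MARCHF6, coding for a ubiquitin ligase of the endoplasmic reticulum, with 1.74 in intron 1 beside 18.9 at the start.

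Most host genes held a single new intronic peak, namely 597, while 76 held several. Of the genes with intronic sequence open to the rule, 4.02% were hosts. A single peak of the protocadherin gamma cluster, with a fold of 2.46 at chr5:140872118-140872404, lies in introns of 22 genes and counts for each of them, so that without it there are 651 hosts and 732 peaks. EXD3, an exonuclease-like gene near the end of chromosome 9, held the most with 5 peaks, whose folds were 1.90 to 3.92 over rates of 12.5 to 28.5. RXRA, the gene of the retinoid X receptor alpha, had 4 peaks on the same chromosome, with folds of 2.03 to 3.45 over rates of 13.2 to 27.1. These genes collected many peaks of low fold on high background. KDM2B, the gene of a histone demethylase that binds CpG islands, was of the other kind. Of its 4 peaks 3 lay in 1 island of 235 CpGs around intron 12 and had folds of 9.05, 10.6 and 7.91 over rates of 0.878 to 0.896. At the KDM2B start the highest fold was 5.31. CAMTA1, a transcription factor gene, RAI1, the cadherin gene CDH4, SHANK2, which codes for a scaffold of the postsynaptic density, and MACROD1 also had 4 each. In CAMTA1 they had folds of 3.65, 9.07, 5.85 and 7.67, of which the third lay in an island.

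Groups of host genes were formed by symbol, and the shares are set beside the 4.02% of all genes. Among 261 homeobox and other developmental transcription factor genes, 29 were hosts, 11.1% (7.57 to 15.6), and 26 of their 40 peaks lay in islands. They hold 5.46% of the peaks but 1.81% of the open sequence and 2.58% of the intronic islands. Examples are the retinoic acid receptor gene RARA (fold 15.5 on 24 fragments, intron 1), PRDM11 (12.4, intron 1), LMX1A (10.1, intron 4) and SIX4 (9.31, intron 1). Wnt, Notch, TGF-beta and FGF signalling had 14 hosts of 144 genes, 9.72% (5.42 to 15.8), with FGF18 at a fold of 13.3 in its last intron, 31074 bp from any start, the Notch ligand gene DLL3 at 7.23 and WNT7A at 9.31. Chromatin regulators had 16 hosts of 188, 8.51% (4.94 to 13.5). They include TET1, whose enzyme oxidizes methylated cytosine, with a fold of 11.8 on 19 fragments in intron 1, 1260 bp from a start, the histone demethylase gene KDM7A with 11.4, and KDM2B. Signalling genes hold 2.46% of the peaks, 0.834% of the open sequence and 1.04% of the intronic islands, and chromatin regulators 3.14%, 1.43% and 2.49%. For chromatin regulators the share of peaks was thus close to that of islands. In these 3 groups the interval of the host share lies above that of all genes, but their genes also differ from the rest in intron length and CpG content, and the part of either was not tested.

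In cell adhesion and axon guidance, 32 of 264 genes were hosts without the protocadherin gamma genes, 12.1% (8.44 to 16.7). The group with them has 286 genes, a median of 78079 bp of open sequence, 6.28% of the peaks and 6.32% of the open sequence. EFNA3 and UNC5A lead, followed by TENM4 (13.7) and IGSF22 (12.9). Regulators of small GTPases had 16 hosts of 211, 7.58%, with an interval that also lies above the share of all genes, and held 2.46% of the peaks and 2.76% of the sequence, with TBC1D12 at a fold of 15.0, AGAP2 at 14.0 and TRIO at 9.31. Ion channel genes had 16 hosts of 234, 6.84% (3.96 to 10.9), and held 3.00% and 3.30%, led by the calcium channel gene CACNA1C, whose peak in intron 15 had a fold of 14.4 on 24 fragments outside islands, and by the potassium channel gene KCNH2 at 8.08. Matrix genes had 8 hosts of 166, 4.82% (2.10 to 9.28), and held 1.77% and 1.81%, with the metalloproteinase gene MMP17 at 11.3 and VCAN, the gene of the proteoglycan versican, at 10.6. For these 4 groups the share of peaks was near the share of sequence. Of 566 genes named ZNF, ZBTB, ZFP and the like, 14 were hosts, 2.47% (1.36 to 4.12), led by ZBTB2 at 12.4 and ZNF608 at 10.3. That interval covers the share of all genes. The group held 2.05% of the peaks, 1.67% of the open sequence and 2.24% of the intronic islands.

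Repeated sequence made up a distinct set. The 169 peaks with mostly repeated 30-mers had a median fold of 4.84 (4.50 to 5.19), against 6.27 (5.85 to 6.49) for the other 564, and 1 of them had a fold of 10 or more. Linking peaks that share a 30-mer, directly or through others, gave 1 set of 151 peaks, among them that of FSTL5, with a median fold of 5.44 and 16 fragments. Tandem repeats, in which at least 50% of bases equal the base 1 period further on, held 34 peaks, 4.64% (3.23 to 6.42) compared with 0.637% at starts and 3.82% outside coding genes, the latter with an overlapping interval. The most common period was 49 bases, in 13 peaks. These had 20 to 48 CpGs, a median of 47 fragments and a median fold of 2.15 over a rate of 21.5. They lie in genes such as TTLL11, AP3S2, PNPLA7, IPP, TMX2, SENP7 and PTPN9. Reads of 1 copy cannot be told apart from those of another where the sequence is the same, and except in PNPLA7, with 2, the median number of places per 30-mer was 26 to 1688.

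The lowest fold among the intronic peaks, 1.66, had the most fragments of them. It was in intron 5 of AHRR, the gene of a repressor of the aryl hydrocarbon receptor, at chr5:415428-415742, with 155 fragments over a rate of 93.0. Its 30-mers had a median of 2 places in the genome, a count that includes copies within the repeat of 34 bases itself. PNPLA7, a lysophospholipase gene, followed with a rate of 41.6 and 75 fragments, and MARCHF6 with 34.7 and 61. Rates over 10 were found at 85 intronic peaks, 11.6% (9.37 to 14.1), against 2.96% at starts, 21.5% in exons and 13.0% outside coding genes, and none of these reached a fold above 4.12. Of the 27 rates over 20, 14 were in tandem repeats.

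The peaks were unevenly spread over the chromosomes. Per 10 Mb of open intronic sequence there were 7.94 on average, 29.6 on chromosome 19, 16.3 on chromosome 17, 15.1 on chromosome 9 and 1.90 on chromosome 13. Of all new peaks on a chromosome, intronic ones made up 8.90% on chromosome 19, 8.75% on chromosome 9, 5.97% on chromosome 17 and 2.05% on chromosome 13, beside 5.79% in all, so that chromosome 17 was near the share of the whole list. Chromosome 19 also has the most CpGs in that sequence, 1.74 per 100 bp, while chromosome 9 with 1.00 is close to the average of 0.963. There 31 of 60 peaks lay in 2 windows of 2000000 bp near the end of the long arm. The 18 between 138615698 and 140577318 had a median fold of 2.70 and rates of 4.06 to 41.6. In all, 156 peaks, 21.3% (18.4 to 24.4), lay within 5000000 bp of a chromosome end, compared with 12.7% at starts, 19.9% in exons and 18.1% (16.0 to 20.2) outside coding genes. Their median fold was 4.39 (3.84 to 4.91) against 6.28 (6.06 to 6.49) farther inside, and their median rate 4.76 against 1.42. The 85 peaks with rates over 10 include 45 of them.

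Short motifs, none of which contains another, were searched on both strands in the 300 bp around each summit. GGGCGG, the letters bound by SP1, was found in 59.9% (56.2 to 63.5) of the intronic peaks and 73.4% of all new peaks. CACGTG, the E-box letters, was found in 7.37% (5.58 to 9.50) and 6.15%. ACGCGT was found in 1.36% and 2.87%, GCGCATGC in 0.682% and 1.67%, CCGGAAGT in 0.409% and 1.38%, and TGACGTCA in 0.409% and 0.663%. CpG-rich letters were thus mostly less frequent than in the whole list, which is mainly start-site peaks, as was CpG density itself. Away from starts GGGCGG was at a like share, 63.8% in exons and 60.9% outside coding genes. The share of TGACGTCA rests on 3 intronic peaks, and its interval (0.0845 to 1.19) covers that of the list. The E-box was at a like share.

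At the limit of 1000 bp, the peaks just inside were those of OLFM2 at 1002 bp, with a fold of 10.7, and SHANK2 at 1003 bp, with 7.61 and 234 CpGs. The SHANK2 peak itself covers the SHANK2 start, and only its summit lies beyond the limit. Just outside were AGAP1 at 998 bp, with 4.73 and 108 CpGs, and ZNF704 at 996 bp, with 13.0 and 64 CpGs. All 4 lay in CpG islands. Most CpGs were counted in NOL4L (240, fold 11.3), SHANK2 and the transcription factor gene NHLH2 (214, fold 13.7), where islands of 1988 to 2900 bp reach within 1000 bp of a start.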

How the data were processed

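MBD-seq was done on HEK293 cells in 4 conditions with 1 library each, and the peak list of the Ab-3A3L WT library was used. According to the methods, reads were mapped by the authors to hg19 with Bowtie2 under default settings, which place a read with several equal matches at 1 of them. The submitters' processing notes also name FastQC, deepTools and MACS2. Settings of the peak caller are not given in the sources used here. The deposited list has 10 columns. The authors' score restates the −log10 q on a scale of 10 and did not enter. The authors' fold is a ratio of fragments to background. Deposited −log10 columns give p and q, and the q column starts at 2.00. Fragments k and rate were recovered from fold = (k + 1)/(rate + 1) and the upper Poisson tail beyond k, which gave the listed −log10 p within 0.000358. That the rate is that of the untreated library is an inference. Depth is known only through the fragments at each summit, with a median of 17 over the list.

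Annotation was GENCODE 44 lifted to GRCh37. Islands were segments scoring 17 per CpG and -1 per other base, over 200 bp, with GC of at least 50% and an observed/expected ratio over 0.6. Named are the 10 highest folds with those tied at the last, the 5 hosts with most peaks (ties included), the farthest from a start, the 3 with most CpGs, the 3 highest rates, those around the 1000 bp limit and up to 4 hosts per gene group; the peaks without CpG, the tandem repeats and the genes given as extremes of a ratio were added after their values were seen. Members, groups and lists were chosen with earlier results of these data known. Intervals are 95%, exact binomial for shares and order-statistic for medians. No p-value was computed. Some named items and sequences are not reported here. Steps were tested on simulated data. Scripts ran in Python 3.11.15 with matplotlib 3.10.9, numba 0.67.0, pandas 2.3.3, scipy 1.17.1 and numpy 2.4.6.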

Additional observations from a re-analysis of the deposited data

How the results depend on the processing

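Of 88 values under other settings 42 stayed within the interval or factor of the main value and 46 moved. With peaks over 500 bp from starts there were 1288 peaks, a median fold of 6.52, 65.4% in islands, 60.2% in intron 1, a median distance of 1259 bp, a rate of 1.41, 4.38% of intronic islands with a peak and 51.5% of hosts with a start-site peak. Over 2000 bp, islands held 36.6%, intron 1 held 33.7%, the distance was 8016 bp and 2.16% of islands had a peak. Over 5000 bp there were 340 peaks, 34.1% in islands, 29.1% in intron 1, a distance of 13083 bp and 1.84% of islands with a peak. With the whole peak over 1000 bp away there were 645 peaks, and the values were 39.8%, 38.1%, 5693 bp and 2.21%.

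With a fold of at least the median of the list, 7.45, there were 210 peaks, with a median fold of 9.07, 64.3% in islands, 56.7% in intron 1, a distance of 2971 bp, a rate of 0.694, 0.889% of islands with a peak and 65.2% of hosts with a start-site peak. With a −log10 q of at least 10 there were 226 peaks, a fold of 8.71, 65.0%, 54.0%, 2678 bp, 0.922, 1.10% and 65.4%. Under the strict island criteria (500 bp, 55%, 0.65) 26.6% of the peaks lay in islands and 12.3% of intronic islands had a peak. The summit in the island, the midpoint in place of the summit and exons of all transcripts moved no value, and the midpoint cannot be applied to the share of islands.

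Settings chosen after seeing the data left out 3 kinds of peaks. Without repeated sequence the median fold was 6.27 and intron 1 held 47.9%. Without rates over 10 the fold was 6.28 and the rate 1.57. Without islands that reach a start, 33.9% lay in islands, 34.5% in intron 1, and the distance was 6475 bp. No paired analysis was possible because no condition has a second library. The median of 18 fragments per summit and the lack of replicates limit the folds of single peaks.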
